A study of Homo sapiens with 12 samples.

Results

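Long intergenic noncoding RNA (LINC) genes give rise to long transcripts that encode no known protein and lie between protein-coding genes. The set described here is every gene of the probe annotation whose symbol is LINC00 followed by digits. It holds 246 of the 14884 genes measured, and RefSeq lists all 246 as long noncoding RNA genes. Membership rests on the names alone and on no measured value, though the set was chosen with earlier results of these data known. The 246 genes had 282 transcript clusters (groups of probes placed on 1 transcribed locus), and 29 of them had more than 1 cluster. For each gene the cluster with the greatest mean signal of the 12 arrays stands for it.

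The cells were SK-N-BE(2), a neuroblastoma line with amplified MYCN, grown in culture and exposed for 6 h to 1 of 4 conditions. Vehicle cells received no compound. JQ1 cells received 1 µM JQ1, which blocks the bromodomains through which BET proteins read acetylated histones. Panobinostat cells received 10 nM panobinostat, an inhibitor of histone deacetylases, and combination cells received both compounds at those doses. Each group had 3 arrays of total RNA from this 1 line, so the values speak for 1 tumour model. The labels do not say whether the 3 samples of a group were separate cultures, so each p-value reflects the spread of these samples alone, and that spread may be technical.

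Long noncoding RNAs are transcribed, capped, spliced and usually polyadenylated by the machinery that makes messenger RNA, yet most are present at low levels. Many are degraded in the nucleus by the RNA exosome, a complex of ribonuclease and structural subunits that adaptor proteins bring to its substrates. BET proteins recruit elongation factors to acetylated promoters and enhancers, and histone deacetylases remove the acetyl marks that BET proteins bind. In neuroblastoma some long noncoding RNA genes lie at inherited risk loci or have been reported as targets of N-Myc.

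Array values were log2 signals as deposited, and a difference of 1 is a 2-fold change on that scale. Array medians over the 14884 genes lay between 7.195 and 7.268. Arrays of the same group correlated at 0.991 to 0.995 across genes, and arrays of different groups at 0.962 to 0.989. 10 of 12 sympathetic neuroblast markers were measured, and all 10 reached at least the median gene's mean of 7.238, with means from 8.58 to 12.66. Mesenchymal (2 of 7 measured), epithelial (3 of 4), immune (1 of 4) and endothelial (2 of 3) markers were at 5.38 to 8.42, apart from LUM, a matrix proteoglycan gene, which was at 11.6. In a bulk extract such as this, fewer cells that make an RNA and less RNA per cell cannot be told apart.

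The LINC genes were dim. Their mean signal ran from 2.959 to 12.66 with a median of 5.636, against 7.238 for all genes, 7.646 for protein-coding genes, 6.022 for antisense genes and 5.299 for miRNA genes. Only 24 of the 246 reached the median gene, and 87 reached a signal of 6. The values carry no detection call, so how many of the others rise above background is unknown. The signal of a cluster also depends on its probes, so levels of different genes are not compared here beyond this summary. The brightest member was LINC00987, whose 12 arrays lay between 12.42 and 12.87, followed by LINC00999 at 10.02 to 10.44. A second cluster of LINC00987 had a mean of 6.288, so the high value belongs to 1 of its 2 clusters.

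A smaller share of LINC genes than of all genes passed the test with each treatment. Genes were called at an adjusted p under 0.05 (limma, Benjamini-Hochberg over all 14884 genes). With JQ1, 4 LINC genes rose and 7 fell, 11 of 246 or 4.47%, where 17.6% of all genes were called. With panobinostat 19 rose and 12 fell, 12.6% against 29.3% of all genes. With the combination 16 rose and 12 fell, 11.4% against 37.7% of all genes. The median difference over the 246 was near 0 in each comparison, at 0.054 with panobinostat and 0.033 with the combination, beside 0.031 and 0.025 for all genes. The 3 comparisons share the vehicle arrays. Arrays did not overlap between treatment and vehicle for 38 LINC genes with JQ1 (15.45%, against 33.5% of all genes), 46 with panobinostat (18.7%, against 39.8%) and 46 with the combination (18.7%, against 46.1%).

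The direction split depended on the scaling of the arrays. After quantile normalization the split with panobinostat was 13 higher and 15 lower, and with the combination 15 higher and 18 lower. With arrays centred on their medians, the split with JQ1 was 7 and 7. In all genes the 2 directions were nearly equal, with 8.18% higher and 9.47% lower with JQ1, 14.5% and 14.8% with panobinostat, and 18.2% and 19.5% with the combination.

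How LINC genes compared with other genes of like signal depended on the range taken. Among all 3048 genes whose mean lay between the quartiles of the LINC genes (5.007 to 6.305), 5.02% were called with JQ1, 10.2% with panobinostat and 12.57% with the combination. These shares lay close to those of the LINC genes. Among the 24 LINC genes at or above the median gene, 4 were called with JQ1, 9 with panobinostat and 10 with the combination (16.67%, 37.5% and 41.67%). Larger shares of all genes in that range were called, at 27.86%, 45.3% and 58.26%. Among the 222 dimmer LINC genes the counts were 7, 22 and 18 (3.153%, 9.91% and 8.108%). These shares too were below those of all genes under the median gene, at 7.444%, 13.33% and 17.17%. Signal was not matched within either range. The median spread between arrays of a group was an SD of 0.174 for LINC genes and 0.133 for all genes. The part of the spread and of the low signal in these counts was not tested further.

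**Figure D1:**
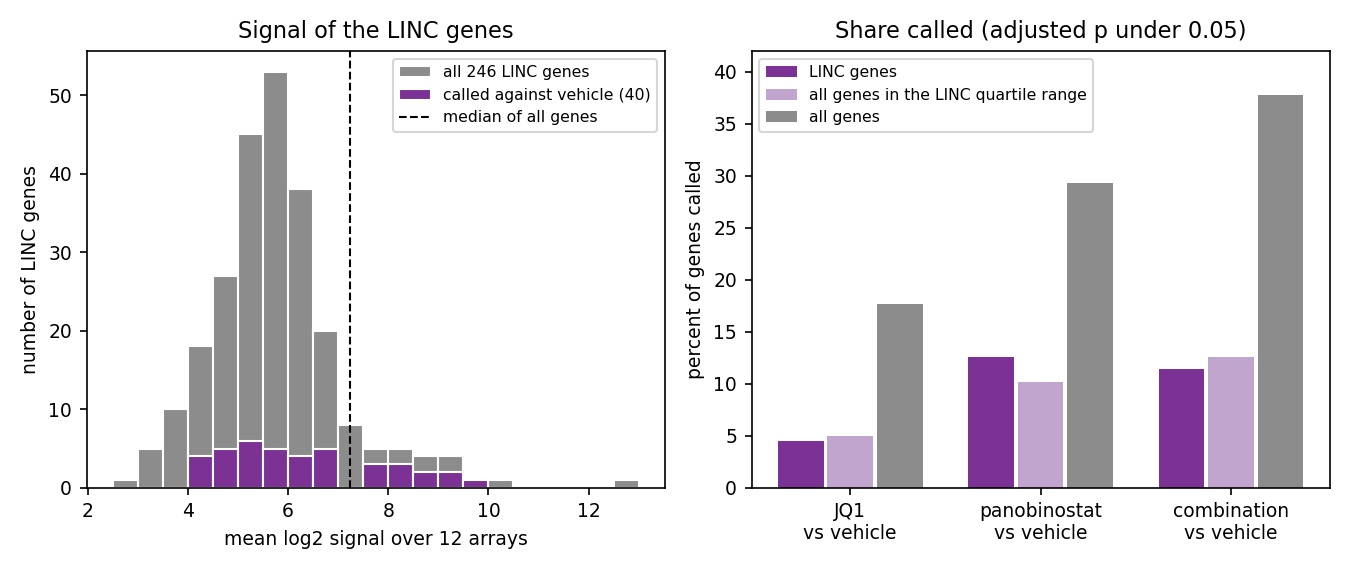
Left, number of LINC genes by mean log2 signal over 12 arrays in bins of 0.5, for all 246 genes (grey) and the 40 called in at least 1 comparison with vehicle (purple); the dashed line marks the median of all genes at 7.238. Right, percent of genes called in each comparison with vehicle. The LINC bars of 4.47%, 12.6% and 11.4% lie below those of all genes and close to those of genes between the quartiles of LINC signal.

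On the cluster that stands for each gene, 206 of the 246 LINC genes were called in no comparison with vehicle, and 40 in at least 1. 11 of these 40 were at or above the median gene's signal and 29 below it. Among the 206, dimmer clusters of LINC00173, LINC00942 and LINC00664 were called when clusters were fitted singly. Those of LINC00173 rose with panobinostat (0.463 and 0.565), and 1 of them with the combination (0.423). That of LINC00942 rose with panobinostat (0.255) and the combination (0.386), and that of LINC00664 fell with the combination (-0.457). The 40 are grouped here by the direction of their changes.

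LINC00963, LINC00693 and LINC00294 were bright members that fell in each comparison with vehicle, and LINC00933 and LINC00641 bright members that rose with panobinostat and with the combination. The promoters of these 5 are printed to show what kind of sequence lies at the starts of bright genes that moved in each direction. Each sequence is RefSeq's on GRCh38.p14, from 250 bases before to 50 bases after the first listed start, written 5′ to 3′ on the gene's own strand. Capitals mark matches on either strand to 7 short motifs: CACGTG (the E-box bound by MYC family proteins), TGACGTCA (the CREB element), TGANTCA (the AP-1 element), CCAAT (the site of NF-Y), TATAAA (the core-promoter TATA box), GGGCGG (the GC box) and TTCCGG (the ETS core). A match on the lower strand appears as its reverse complement. The regions are chr9:129488410-129488709 on the plus strand for LINC00963, chr3:28575028-28575327 on the plus strand for LINC00693, chr11:33075900-33076199 on the plus strand for LINC00294, chr15:84570399-84570698 on the plus strand for LINC00933 and chr14:21206851-21207150 on the minus strand for LINC00641.
LINC00963: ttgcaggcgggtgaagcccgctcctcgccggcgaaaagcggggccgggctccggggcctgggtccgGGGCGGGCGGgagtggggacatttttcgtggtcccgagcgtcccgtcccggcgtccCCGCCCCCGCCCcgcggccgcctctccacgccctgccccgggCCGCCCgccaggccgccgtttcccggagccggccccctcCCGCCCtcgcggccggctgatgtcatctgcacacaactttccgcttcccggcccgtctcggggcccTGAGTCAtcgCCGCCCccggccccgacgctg
LINC00693: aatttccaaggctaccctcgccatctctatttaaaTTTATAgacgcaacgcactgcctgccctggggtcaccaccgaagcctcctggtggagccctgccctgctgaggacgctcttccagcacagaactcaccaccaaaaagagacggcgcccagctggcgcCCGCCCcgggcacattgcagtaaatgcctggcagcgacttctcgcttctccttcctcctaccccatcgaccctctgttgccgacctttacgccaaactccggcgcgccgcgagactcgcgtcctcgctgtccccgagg
LINC00294: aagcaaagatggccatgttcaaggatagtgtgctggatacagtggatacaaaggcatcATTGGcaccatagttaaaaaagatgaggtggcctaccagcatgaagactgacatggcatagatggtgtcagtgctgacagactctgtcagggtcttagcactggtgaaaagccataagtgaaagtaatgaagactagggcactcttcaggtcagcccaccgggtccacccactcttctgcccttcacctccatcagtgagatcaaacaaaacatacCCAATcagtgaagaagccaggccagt
LINC00933: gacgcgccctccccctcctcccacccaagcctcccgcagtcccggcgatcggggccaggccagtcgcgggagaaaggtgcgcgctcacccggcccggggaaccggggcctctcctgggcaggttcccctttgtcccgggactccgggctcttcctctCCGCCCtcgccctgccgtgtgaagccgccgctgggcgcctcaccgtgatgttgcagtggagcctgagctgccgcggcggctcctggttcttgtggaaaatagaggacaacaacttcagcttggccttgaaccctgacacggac
LINC00641: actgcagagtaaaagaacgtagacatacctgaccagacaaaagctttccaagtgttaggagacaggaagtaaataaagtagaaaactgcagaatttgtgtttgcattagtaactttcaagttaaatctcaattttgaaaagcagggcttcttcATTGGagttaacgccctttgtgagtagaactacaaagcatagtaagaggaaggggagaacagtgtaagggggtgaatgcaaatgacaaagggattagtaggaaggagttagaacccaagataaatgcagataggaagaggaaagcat

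These 5 promoters have little in common. The LINC00963 promoter is 78% G or C with 43 CpG pairs and holds 7 GC boxes and 1 AP-1 element. Those of LINC00693 (61.33% G or C, 24 CpG pairs) and LINC00933 (69%, 26 CpG pairs) hold 1 GC box each. The LINC00693 window also has a TATAAA match on the lower strand at position -215, far from the start. The promoters of LINC00294 (48%, 1 CpG pair) and LINC00641 (39%, 2 CpG pairs) hold no GC box but do hold CCAAT, on both sides of the start in LINC00294. None of the 5 windows contains CACGTG.

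Promoters of 178 of the 246 LINC genes were in the RefSeq table. Their median G and C content was 48.67% with 5 CpG pairs, against 58.33% and 14 over 27305 genes. The 22 bright LINC genes with an entry had medians of 60.67% and 18, and the 156 dimmer ones 48% and 4. GGGCGG occurred in 25.84% of LINC promoters and in 44.59% of all promoters. TGANTCA occurred in 12.92% against 7.764%, TATAAA in 16.29% against 11.95%, TTCCGG in 10.67% against 17.63%, CCAAT in 35.39% against 35.7%, CACGTG in 6.742% against 7.435% and TGACGTCA in 1.685% against 1.978%. Of the 30 members called against vehicle with an entry, 1 held CACGTG. These are letter matches in a fixed window and are given as a description.

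7 LINC genes fell with JQ1, and their values with the other treatments stand beside. LINC00963, a transcript first described in prostate cancer, had log2 signals of 9.36, 9.11 and 9.24 with vehicle, 7.99, 7.83 and 7.74 with JQ1, 7.88, 7.96 and 8.22 with panobinostat, and 7.12, 7.56 and 7.12 with the combination. All treated arrays lay below all vehicle arrays, and the combination arrays lay below those of either compound. LINC00963 fell by 1.38 ± 0.13 (SE, n = 3 per group) with JQ1, or 2.60-fold lower, with an adjusted p of 4.94e-05. Panobinostat gave -1.22 ± 0.13 (adjusted p 4.32e-05), and the combination -1.97 ± 0.13, or 3.92-fold lower (adjusted p 4.4e-07). This was the largest fall among the 246 in each of the 3 comparisons. It was the 1 LINC gene that fell at least 2-fold with JQ1, where 0.497% of all genes did so, and 0 members rose 2-fold with JQ1 in limma's test, beside 0.37% of all genes.

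LINC00693 had signals of 9.34, 9.05 and 9.22 with vehicle, 8.51, 8.53 and 8.48 with JQ1, 8.47, 8.27 and 8.54 with panobinostat, and 7.79, 7.91 and 7.89 with the combination. The arrays of the 2 single compounds overlapped each other and lay between vehicle and the combination. JQ1 changed LINC00693 by -0.70 ± 0.09 (adjusted p 0.00029), panobinostat changed it by -0.78 ± 0.09 (adjusted p 6.86e-05) and both together by -1.34 ± 0.09 (adjusted p 4.51e-07). It was the 1 member called in the same direction on a second cluster, which gave -0.416 with JQ1, -0.361 with panobinostat and -0.965 with the combination.

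LINC00294 lay at 9.93, 9.74 and 9.72 with vehicle, 9.41, 9.26 and 9.42 with JQ1, 9.38, 9.48 and 9.45 with panobinostat, and 8.60, 8.75 and 8.67 with the combination. Its single-compound arrays sat just under the vehicle arrays, and the combination arrays stood well below them. The fall of LINC00294 was small with the single compounds, -0.44 ± 0.08 for JQ1 (adjusted p 0.00269) and -0.36 ± 0.08 for panobinostat (adjusted p 0.00445), and reached -1.12 ± 0.08 when both were given (adjusted p 6.17e-07).

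LINC00265 had a similar course on its brightest cluster, from 9.05, 9.15 and 8.998 with vehicle to 8.44, 8.52 and 8.47 with JQ1, 8.51, 8.76 and 8.54 with panobinostat, and 8.05, 8.09 and 7.89 with the combination. It fell in all 3 comparisons, at -0.59 ± 0.08, -0.46 ± 0.08 and -1.06 ± 0.08 (adjusted p 0.000586, 0.00143 and 1.64e-06). Its other 2 clusters did not show this: with the combination they stood at 0.0423 and 0.0908 against vehicle, neither called. With the mean of the 3 clusters the panobinostat difference was -0.0892, not called. RefSeq also lists the pseudogene copies LINC00265-2P and LINC00265-3P, whose RNA the probes may share, so the value of this gene is uncertain.

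Another pair of members, dimmer ones, also fell. LINC00629 was at -0.39 with JQ1, -0.33 with panobinostat and -0.49 with the combination, each ± 0.08. LINC00578 was at -0.35, -0.20 and -0.42, each ± 0.06. Both lay under the median gene's signal.

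LINC00899 was different in its course. It had signals of 6.66, 6.62 and 6.38 with vehicle, 5.80, 6.00 and 5.84 with JQ1, 5.85, 5.74 and 5.97 with panobinostat, and 6.097, 6.02 and 6.09 with the combination. The combination arrays lay above every array of the single compounds and below every vehicle array. LINC00899 fell in all 3 comparisons with vehicle, at -0.67 ± 0.09 for JQ1 (adjusted p 0.00046), -0.70 ± 0.09 for panobinostat (adjusted p 0.000171) and -0.48 ± 0.09 for both (adjusted p 0.00127). The interaction (both compounds together, less the 2 single changes added up) was 0.89 ± 0.13 (adjusted p 0.0161), so the fall with both was smaller than that sum. The direct differences of the combination from JQ1 (0.19, adjusted p 0.162) and from panobinostat (0.22, adjusted p 0.148) were not called. LINC00899 was the 1 LINC gene called for the interaction, where 0.759% of all genes were called, and 0.309% were called higher. At an unadjusted p under 0.05, 20 of the 246 and 2037 of the 14884 genes passed.

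**Figure D2:**
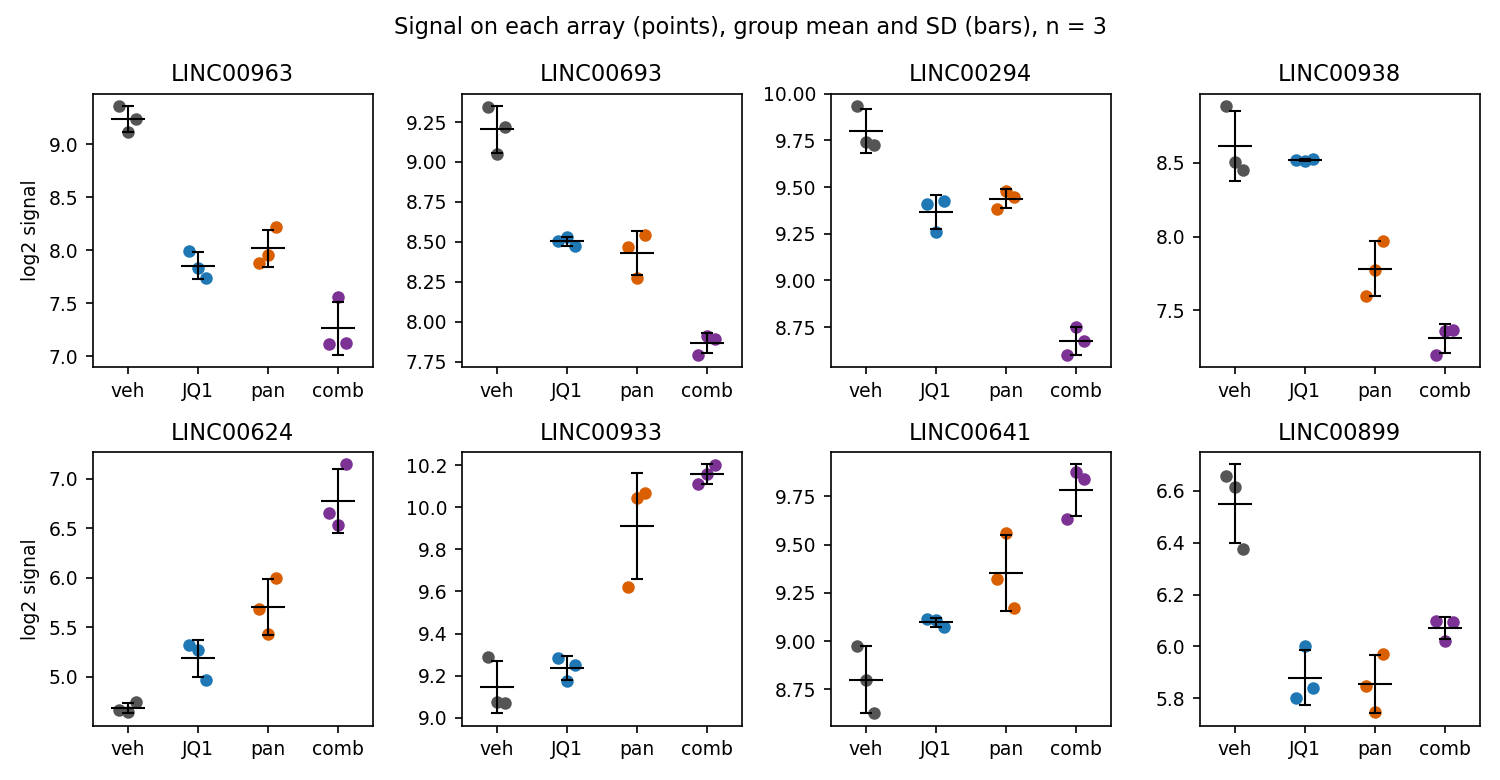
Log2 signal of 8 LINC genes on every array (points) with the group mean and SD (bars, n = 3), for vehicle (veh), JQ1, panobinostat (pan) and the combination (comb); each panel has its own vertical axis. LINC00963, LINC00693, LINC00294 and LINC00938 are lowest with the combination, LINC00624, LINC00933 and LINC00641 are highest with it, and LINC00899 is lower in all treated groups.

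Other members fell with panobinostat and with the combination and were not called with JQ1. LINC00938 had signals of 8.89, 8.51 and 8.45 with vehicle, 8.52, 8.51 and 8.53 with JQ1, 7.60, 7.78 and 7.97 with panobinostat, and 7.20, 7.36 and 7.37 with the combination. JQ1 arrays lay within the vehicle range, whereas panobinostat and combination arrays lay below it and apart from each other. JQ1 arrays differed from vehicle by -0.10 ± 0.12 (adjusted p 0.674), panobinostat arrays by -0.83 ± 0.12 (adjusted p 0.000302) and combination arrays by -1.30 ± 0.12 (adjusted p 4.62e-06). Panobinostat against JQ1 gave -0.74, a called difference.

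LINC00847 lay at 7.23, 7.17 and 7.20 with vehicle and at 7.16, 7.27 and 7.24 with JQ1. It was lower with panobinostat, at 6.71, 6.37 and 6.65, and with the combination, at 6.69, 6.73 and 6.81. Its differences were -0.62 ± 0.09 for panobinostat (adjusted p 0.00024) and -0.46 ± 0.09 for both compounds (adjusted p 0.00115), and the groups treated with panobinostat overlapped each other. A dimmer cluster of LINC00847 stood at -0.197 with panobinostat and -0.145 with the combination, neither called. LINC00574 also fell with panobinostat (-0.43 ± 0.10) and with the combination (-0.45 ± 0.10), and was at -0.04 with JQ1. LINC00433 was called lower with panobinostat (-0.26 ± 0.08), and stood at -0.10 with the combination.

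Most rises appeared with panobinostat. LINC00624, the member with the largest rise, lay at 4.67, 4.64 and 4.74 with vehicle, 5.32, 5.27 and 4.96 with JQ1, 5.68, 5.43 and 6.00 with panobinostat, and 6.66, 6.53 and 7.15 with the combination. The groups did not overlap and stood in that order. Its rise was 1.02 ± 0.17 for panobinostat, 2.03-fold (adjusted p 0.000775), and 2.10 ± 0.17 for both compounds, 4.27-fold (adjusted p 1.83e-06). With JQ1 its difference was 0.50 ± 0.17, which missed the threshold (adjusted p 0.0649). It was the 1 member that rose at least 2-fold with panobinostat, where 0.813% of all genes did so. LINC00963 was the 1 member that fell 2-fold with panobinostat, beside 1.18% of all genes.

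LINC00622, dim as well, had signals of 5.54, 5.47 and 5.18 with vehicle, 5.55, 5.38 and 5.60 with JQ1, 5.58, 6.13 and 6.02 with panobinostat, and 6.69, 6.55 and 6.2955 with the combination. The combination arrays were above all others. Its rise was 0.51 ± 0.15 for panobinostat (adjusted p 0.0232) and 1.11 ± 0.15 for both compounds (adjusted p 9.77e-05).

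4 members at or above the median gene rose with panobinostat and 4 with the combination, the largest rises being those of LINC00933 and LINC00641. LINC00933 lay at 9.29, 9.08 and 9.07 with vehicle, 9.28, 9.17 and 9.25 with JQ1, 9.62, 10.05 and 10.07 with panobinostat, and 10.11, 10.16 and 10.20 with the combination. JQ1 arrays fell inside the vehicle range, and all arrays with panobinostat lay above it. The rise of LINC00933 was 0.77 ± 0.11 for panobinostat (adjusted p 0.000322) and 1.01 ± 0.11 for both (adjusted p 1.93e-05). Its second cluster, with a mean of 6.346, differed by -0.0926 with the combination and was not called.

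LINC00641 lay at 8.98, 8.80 and 8.63 with vehicle, 9.11, 9.11 and 9.07 with JQ1, 9.32, 9.56 and 9.17 with panobinostat, and 9.63, 9.88 and 9.84 with the combination. The groups did not overlap. Panobinostat raised LINC00641 by 0.55 ± 0.11 (adjusted p 0.00311) and both compounds by 0.98 ± 0.11 (adjusted p 2.84e-05), and its 0.30 ± 0.11 with JQ1 was not called (adjusted p 0.101). Without vehicle replicate 1 the JQ1 difference was 0.3848 with an adjusted p of 0.04821. A dimmer cluster of the gene, with a mean of 4.778, stood at -0.0845 with panobinostat and 0.167 with the combination, and the mean of both clusters gave 0.2339 with panobinostat, not called.

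LINC00312, reported at lower levels in nasopharyngeal carcinoma, had its highest arrays with panobinostat. Its signals were 4.56, 4.44 and 4.15 with vehicle, 4.20, 3.92 and 4.20 with JQ1, 5.25, 5.51 and 5.32 with panobinostat, and 4.80, 4.95 and 5.12 with the combination. The rise was 0.98 ± 0.13 for panobinostat (adjusted p 0.000157) and 0.57 ± 0.13 for both compounds (adjusted p 0.00356), and its -0.28 with JQ1 was not called. The combination minus panobinostat was -0.41 ± 0.13 with no overlap between their arrays, and was not called (adjusted p 0.0534). With the mean of its clusters in place of the brightest, the difference of the combination from vehicle was 0.3189, not called. The dimmer cluster, with a mean of 3.24, stood at 0.14 with panobinostat and 0.067 with the combination, neither called. Even the brightest cluster was dim, with a mean of 4.70, under the lower quartile of the LINC genes at 5.007.

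LINC00472, reported at lower levels in aggressive breast tumours, rose by 0.68 ± 0.12 with panobinostat and 0.69 ± 0.12 with the combination. Its panobinostat arrays at 5.79, 5.74 and 5.59 and combination arrays at 5.69, 5.61 and 5.85 lay above vehicle arrays at 5.001, 4.77 and 5.32. LINC00205 rose by 0.45 ± 0.11 and 0.63 ± 0.11 in those comparisons. LINC00602 and LINC00663 were also called higher in both, but a dimmer cluster of LINC00663 was called lower with the combination (-0.293, adjusted p 0.0377) where the brightest was called higher (0.46), so the direction of this gene is uncertain. 8 members were called higher with panobinostat alone among the comparisons with vehicle, from LINC00665 at 0.30 ± 0.10, a bright member, to LINC00939 at 0.73 ± 0.15. LINC00466, LINC00487, LINC00616 and LINC00692 lay between them at 0.48 to 0.52. Dimmer clusters were not called with panobinostat for LINC00466 (-0.00584), LINC00487 (0.279), LINC00616 (0.203 and -0.223) or LINC00665 (0.214). Of 11 members with several clusters that were called with panobinostat, 10 had no other cluster called. 5 members were called higher with the combination alone, LINC00588 by 0.56 ± 0.15, LINC00957 by 0.34 ± 0.07, LINC00908 by 0.28 ± 0.08, LINC00861 by 0.26 ± 0.09 and LINC00851 by 0.25 ± 0.09. LINC00957 was the bright one of these, at 7.89, 7.83 and 7.71 against 7.40, 7.42 and 7.59 with vehicle. Whether these members differ between treatments is answered only by the direct comparisons below.

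Rises with JQ1 were few and small. LINC00673, a transcript at a locus tied to pancreatic cancer risk, lay at 6.41, 6.51 and 6.63 with vehicle and at 6.94, 6.93 and 6.81 with JQ1. With panobinostat it was at 6.56, 6.52 and 6.62 and with the combination at 6.99, 6.89 and 6.85, so the arrays with JQ1 stood above those without it. LINC00673 rose by 0.38 ± 0.08 with JQ1 (adjusted p 0.005) and by 0.39 ± 0.08 with the combination (adjusted p 0.00136), with 0.05 for panobinostat (adjusted p 0.672).

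The calls of the other 3 rises with JQ1 did not hold when single arrays were left out. For LINC00222 these included arrays of groups outside the comparison. LINC00324 rose by 0.32 ± 0.09 (adjusted p 0.0326), and leaving out vehicle replicate 1 or 3 or any JQ1 array gave 0.2742 to 0.3224 with adjusted p from 0.07575 to 0.09753. LINC00919 rose by 0.33 ± 0.09 (adjusted p 0.0301), and without vehicle replicate 1 or 3 or any JQ1 array it was 0.2491 to 0.3548 with adjusted p from 0.0612 to 0.117. With panobinostat LINC00919 was called in the opposite direction (-0.28 ± 0.09, adjusted p 0.0434). LINC00222 rose by 0.25 ± 0.08 (adjusted p 0.0471), and the call was lost without any 1 array other than vehicle replicate 2 and panobinostat replicate 1 (0.2014 to 0.2856). With panobinostat LINC00222 was also called higher (0.28 ± 0.08, adjusted p 0.018). Of the 4 rises with JQ1, that of LINC00673 alone held when any 1 array was left out.

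Calls of 4 further members were also lost when single arrays were left out, some of them arrays outside the comparison. The calls of LINC00862 and LINC00930 were lost after quantile normalization too. LINC00862 stood 0.70 ± 0.24 higher for panobinostat and 0.79 ± 0.24 higher for both compounds, and without panobinostat replicate 2 or combination replicate 2 these were 0.4452 and 0.545, no longer called. Its calls were also lost without vehicle replicate 2 or 3, and that with panobinostat without any JQ1 array. LINC00997 stood at -0.57 ± 0.17 with the combination, and at -0.5269 to -0.4107 without vehicle replicate 1, combination replicate 1 or combination replicate 2, no longer called. LINC00929 stood at -0.52 ± 0.17, and at -0.5414 to -0.3837 without vehicle replicate 1 or 3 or combination replicate 1 or 2, no longer called. LINC00930 was 0.62 ± 0.21 higher with panobinostat, and its call was lost without any vehicle array, JQ1 replicate 3, panobinostat replicate 1 or 3, or combination replicate 3, with values from 0.4806 to 0.6816.

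**Figure D3:**
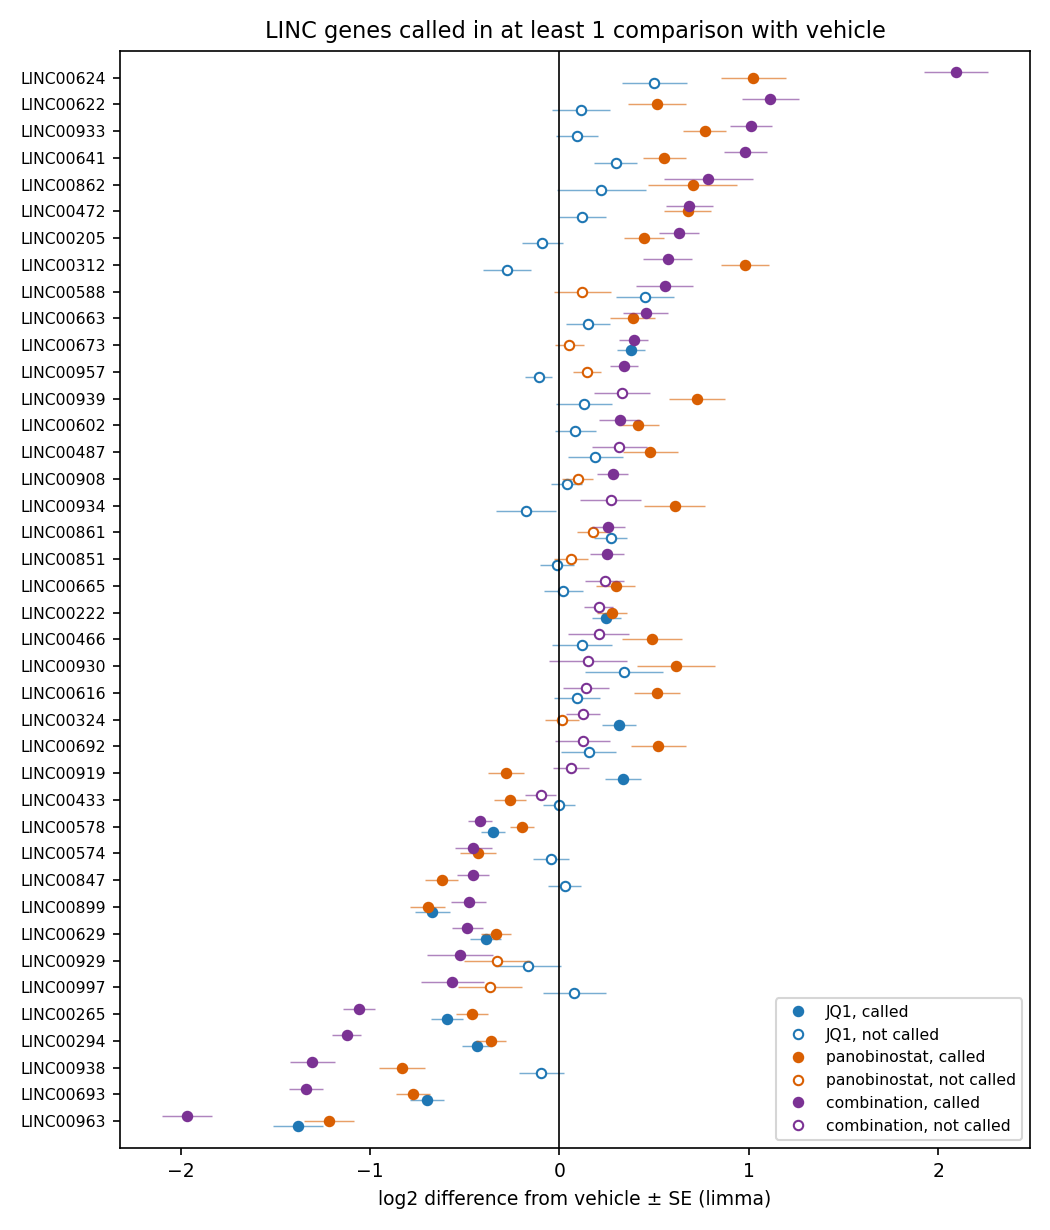
Log2 difference from vehicle ± SE (limma, n = 3 per group) for the 40 LINC genes called in at least 1 comparison, ordered by the difference with the combination; filled points were called at an adjusted p under 0.05 and open points were not. LINC00963 lies lowest at -1.97 and LINC00624 highest at 2.10 with the combination, and most members lie within 0.5 of 0 with JQ1.

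The direct comparisons show which members the combination moved beyond a single compound. Against JQ1 the combination had 11 members higher and 10 lower, 21 of 246 where 25.6% of all genes were called. The largest rises were LINC00624 at 1.59 ± 0.17, LINC00622 at 1.00 ± 0.15, LINC00933 at 0.92 ± 0.11 and LINC00312 at 0.85 ± 0.13. The largest falls were LINC00938 at -1.21 ± 0.12, LINC00294 at -0.69 ± 0.08, LINC00997 at -0.64 and LINC00693 at -0.64 ± 0.09. The LINC00997 call was lost without JQ1 replicate 1 or 3 or combination replicate 1 or 2, with values from -0.6075 to -0.5404. With arrays centred on their medians the split was 8 higher and 12 lower.

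Against panobinostat the combination had 5 members higher and 7 lower, 12 of 246 where 14.7% of all genes were called, 6.13% higher and 8.55% lower. The falls included LINC00294 at -0.76 ± 0.08, LINC00963 at -0.75 ± 0.13, LINC00265 at -0.59 ± 0.08 and LINC00693 at -0.56 ± 0.09, members that JQ1 by itself also lowered. LINC00624 rose by 1.07 ± 0.17, LINC00622 by 0.60 ± 0.15 and LINC00641 by 0.43 ± 0.11. The LINC00622 call was lost without panobinostat replicate 1 (0.4359) or combination replicate 1 (0.5099) or 2 (0.5814). The LINC00641 call was lost without panobinostat replicate 1 or 3 or combination replicate 2 or 3, at 0.34 to 0.4149. LINC00919 at 0.34 and LINC00658 at -0.62 lost their calls without single arrays too, at 0.2692 to 0.3809 for any of the 6 arrays and at -0.5797 to -0.4139 for panobinostat replicate 1 or combination replicate 1 or 3. The count itself was 7 without combination replicate 1.

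5 members were lower with the combination than with vehicle, JQ1 and panobinostat, each difference called: LINC00265, LINC00294, LINC00693, LINC00938 and LINC00963. This is 2.03% of the 246, against 4.58% of all genes. 3 were higher in the same sense, LINC00622, LINC00624 and LINC00641, or 1.22% against 2.43% of all genes. The same 5 were the members that fell at least 2-fold with the combination, and LINC00622, LINC00624 and LINC00933 those that rose at least 2-fold, beside 3.12% and 1.99% of all genes.

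Panobinostat against JQ1 had 11 members higher and 9 lower, 20 of 246 where 23.3% of all genes were called. LINC00312 at 1.26 ± 0.13, LINC00934 at 0.78 ± 0.16, LINC00933 at 0.67 ± 0.11 and LINC00939 at 0.60 ± 0.15 were higher with panobinostat. LINC00938 at -0.74 ± 0.12, LINC00847 at -0.65 and LINC00919 at -0.62 were lower. LINC00863, at -0.39, lost its call without JQ1 replicate 1 or 2 or any panobinostat array, at -0.4027 to -0.3101. Without JQ1 replicate 1 the count was 11.

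Some LINC genes known from other settings showed no call. LINC00467, reported to be repressed by N-Myc in neuroblastoma, lay at 8.23, 7.99 and 8.30 with vehicle, 8.13, 8.02 and 8.26 with JQ1, 8.25, 8.11 and 8.24 with panobinostat, and 7.86, 8.06 and 8.12 with the combination. All 4 groups overlapped, and its differences were -0.04, 0.02 and -0.16, each ± 0.10, with adjusted p of 0.862, 0.892 and 0.254. LINC00473, induced by cyclic AMP signalling through CREB, differed by -0.18, -0.15 and -0.18 with an array range of 4.996 to 5.64. LINC00511, reported to promote growth in lung and breast cancer, differed by 0.04, 0.04 and 0.17, and without vehicle replicate 3 the combination difference was 0.2891 with an adjusted p of 0.04859. LINC00632, whose locus also makes the circular RNA CDR1as, differed by -0.27, -0.04 and 0.01, each ± 0.18. Circular and linear products of the locus were not separated here.

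Long noncoding RNA genes with names of their own were listed for comparison. Of 64 such genes, 37 were measured. With JQ1 1 rose and 4 fell, with panobinostat 7 rose and 7 fell, and with the combination 7 rose and 6 fell, with medians of 0.012, -0.059 and -0.052. These are 5, 14 and 13 genes of 37, where 17.6%, 29.3% and 37.7% of all genes were called, so the list's counts lay near the background. MIR17HG, host of an oncogenic microRNA cluster, fell with panobinostat (-1.38 ± 0.12) and with the combination (-1.58 ± 0.12), and its -0.16 with JQ1 was not called. CASC15 and NBAT1, neighbours at a neuroblastoma risk locus, fell with every treatment, CASC15 at -0.73, -0.63 and -1.36 (each ± 0.12) and NBAT1 at -0.83, -0.75 and -1.05 (each ± 0.08). MIR99AHG fell too, at -0.90, -0.38 and -0.98, each ± 0.13. MIR22HG rose by 0.26, 0.41 and 0.68, each ± 0.08. NORAD, which binds Pumilio proteins, rose by 0.17 with panobinostat and 0.38 with the combination, each ± 0.06, and MALAT1, an abundant nuclear RNA, rose by 0.29 ± 0.08 with the combination.

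Genes of the RNA exosome and its adaptors, which degrade many nuclear noncoding RNAs, mostly fell when both compounds were given. Of 29 listed symbols 18 were measured, and the 29 include older and newer names of the same gene, such as SKIV2L2 and MTREX. With JQ1 3 rose and 3 fell, beside 8.18% of all genes higher and 9.47% lower. With panobinostat 2 rose and 7 fell, beside 14.5% higher and 14.8% lower. With the combination 2 rose and 12 fell, with a median of -0.27, beside 18.2% of all genes higher, 19.5% lower and a median of 0.025. Among the 7442 genes at or above the median gene's signal 2345 fell with the combination, and the list was not matched for signal. EXOSC8, a core subunit, fell with each treatment, at -0.50, -0.63 and -1.02, each ± 0.07. MTREX, the helicase that feeds RNA into the complex, was lower in all 3, at -0.42, -0.20 and -0.60, each ± 0.06. EXOSC10, a catalytic subunit, fell with panobinostat (-0.38) and with the combination (-0.59), each ± 0.07. DIS3, the other catalytic subunit, rose by 0.35, 0.56 and 0.72, each ± 0.10. TENT4B, the poly(A) polymerase that tags substrates, rose by 0.48, 0.47 and 0.79, each ± 0.08.

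Of 21 listed proteins reported to bind long noncoding RNAs, 12 had measured genes. With JQ1 2 rose and 1 fell, with panobinostat 0 rose and 4 fell (0 higher in limma's test), and with the combination 2 rose and 5 fell. These counts of 12 stand beside 17.6%, 29.3% and 37.7% of all genes called and show nothing particular to the list. PUM2, a Pumilio protein bound by NORAD, fell with panobinostat (-0.51) and with the combination (-0.71), each ± 0.08. KDM1A, a histone demethylase, fell in the same comparisons (-0.29 and -0.42, each ± 0.06). RCOR1, its partner protein, rose by 0.51 with JQ1 and 0.40 with the combination, each ± 0.06.

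LINC genes and the protein-coding genes beside them changed together in some pairs and not in others. The RefSeq gene order gave 278 pairs of a LINC gene and an adjacent measured protein-coding gene, from 192 members and 240 neighbours. Over these pairs the differences from vehicle correlated at Pearson 0.080 with JQ1, 0.041 with panobinostat and 0.099 with the combination (Spearman 0.10, 0.0034 and 0.095). Pairs share arrays and some share a gene, so these values are a description. Neighbours were called in 22.9%, 32.9% and 50% of cases. Beside these stand 20.28%, 33.31% and 43.11% of protein-coding genes, and 17.6%, 29.3% and 37.7% of all genes. With the combination the LINC gene was called in 34 pairs, and both genes in 25 of them, 17 in the same direction and 8 in opposite ones. With panobinostat both were called in 15 of 37 such pairs, 10 in the same direction and 5 in opposite ones. With JQ1 both were called in 3 of 12, all 3 in the same direction.

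**Figure D4:**
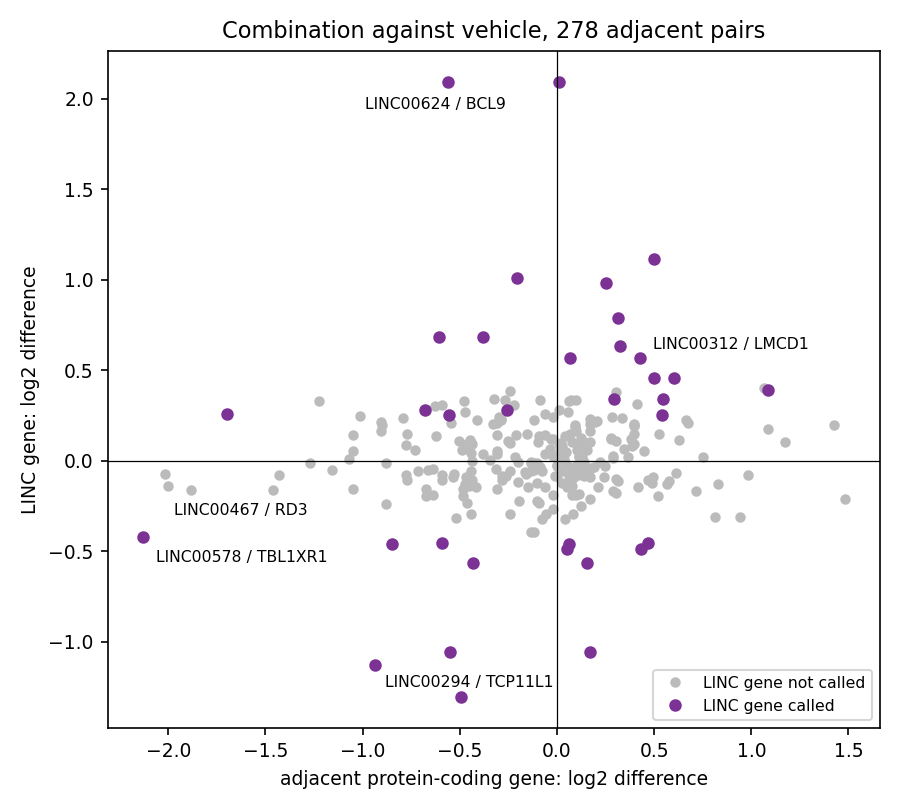
Log2 difference of each LINC gene (vertical) against that of an adjacent protein-coding gene (horizontal), combination against vehicle, 278 pairs; purple points are pairs whose LINC gene was called. The points show no clear slope (Pearson 0.099), and pairs such as LINC00294 with TCP11L1 (-1.12 and -0.94) and LINC00624 with BCL9 (2.10 and -0.56) lie in different quadrants.

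Single pairs show both patterns. LINC00294 lies beside TCP11L1, which differed by -0.21, -0.31 and -0.94 (each ± 0.07), the last 2 called. LINC00578 lies beside TBL1XR1, a subunit of a corepressor complex, which fell in every comparison (-1.30, -0.94 and -2.13, each ± 0.08). LINC00312 overlaps LMCD1, which rose by 0.81 with panobinostat and 0.43 with the combination (each ± 0.10), and LINC00847 overlaps ZFP62, which fell there (-0.48 and -0.85, each ± 0.13). Where genes overlap, signal from 1 transcript in both clusters cannot be told apart from a change in both genes, because the handling of strand is not given in the sources used here.

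Opposite movement was seen in other pairs. LINC00624 rose while BCL9, a cofactor of beta-catenin, fell (-0.54, -0.35 and -0.56, each ± 0.06), and its other neighbour FMO5 was at 0.01 with the combination. LINC00861 was called higher with the combination while TRIB1, a pseudokinase gene, fell by 1.70 ± 0.09. By contrast CDK13, beside LINC00265, fell with panobinostat and the combination (-0.42 and -0.55, each ± 0.07), in step with the brightest cluster of that gene, and ANO6, beside LINC00938, fell in both (-0.22 and -0.49, each ± 0.06).

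Neighbours also changed where the LINC gene was not called. RD3, beside LINC00467, fell with all treatments (-1.57, -1.389 and -1.88, each ± 0.12), as did TRAF5 on its other side (-0.58, -0.62 and -1.46, each ± 0.11). SOX9, a transcription factor gene in the interval that holds LINC00673 and LINC00511, rose by 0.36, 1.02 and 1.09 (each ± 0.10). LINC00673 was called higher with JQ1 (0.38) and with the combination (0.39), like SOX9, but not with panobinostat (0.05), and LINC00511 was called in none of the 3.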

How the data were processed

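Total RNA from SK-N-BE(2) cells was hybridised to Affymetrix Human Gene 2.0 ST arrays, 3 in each of 4 groups. The authors deposited 1 log2 signal per transcript cluster and array (53617 clusters, 1.391 to 14.1). The log base is read from that range. The submitters' processing notes name MAS5 and affy; the background correction, normalization and build were not given in the sources used here. Precision is limited by the small number of arrays.

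A probe table gave 16098 clusters 1 symbol each, 0 several and 37519 none, leaving 14884 genes by brightest cluster, 14883 of them found in RefSeq by Entrez ID. limma 3.58.1 in R 4.3.3 (lmFit, eBayes, all 12 arrays, group means, 8 residual and 3.457 prior degrees of freedom) gave two-sided p-values, adjusted by Benjamini-Hochberg. An exact permutation test of 3 against 3 cannot go below 0.1 and was not used for single genes. The fit was tested on simulated data. Values were not normalised again and no gene was filtered.

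The members and lists were chosen with earlier results of these data known. Members were named by rule. Per comparison with vehicle these were the 8 largest rises and 8 largest falls among called members with no overlap between arrays. To these came 4 per direction elsewhere, the 8 brightest, and 12 fixed symbols, 4 of them measured under that symbol. Genes listed here under another name were not looked up by this rule. Others named, such as those whose call was lost when single arrays were left out and the LINC genes in the lists of rises, were chosen after their values were seen. Olfactory receptor genes were meant as a silent reference, but 1 was measured, so no such reference was used. Alternatives were other array scalings, a filter on dim genes, a replicate block, other cluster rules, a trended prior, only the arrays compared, and leaving out each array. Same-numbered arrays did not deviate together: over 18 pairs r ran from -0.693 to 0.236 with a median of -0.049. Python 3.11.15, pandas 2.3.3 and matplotlib 3.10.9 were used for counts and figures.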

Additional observations from a re-analysis of the deposited data

Results flagged for a closer look

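LINC00899 was singled out because the effect of 1 compound differed with the other present, by a test of that difference itself. Its interaction was 0.89 ± 0.13 on the log2 scale (limma, adjusted p 0.0161), with group means set by arrays at 6.38 to 6.66 with vehicle, 5.80 to 6.00 with JQ1, 5.74 to 5.97 with panobinostat and 6.02 to 6.097 with the combination. Over 17 other settings that kept the gene, the interaction ran from 0.832 to 0.974 with adjusted p from 0.00914 to 0.0488. A filter that drops genes under the 40th percentile of signal removes it from the test.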

How the results depend on the processing

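The counts of called LINC genes moved most with the filter on dim genes, which left 36 of 246 members and 8930 genes: 6 with JQ1, 15 with panobinostat, 15 with the combination, 13 for the combination against JQ1, 10 for panobinostat against JQ1 and 0 for the interaction, most of the LINC genes having been removed. Fits of only the arrays compared gave 7 for the combination against panobinostat, and quantile normalization gave 2 for the interaction; the cause was not tested. The replicate block gave 13 for panobinostat against JQ1 (20 without it), and the arrays share only a number. Leaving out 1 array gave 8 to 15 with JQ1, 21 to 30 with panobinostat, 23 to 31 with the combination, 16 to 22 and 7 to 14 for the combination against JQ1 and panobinostat, 11 to 20 for panobinostat against JQ1, and 1 for the interaction. Of 69 calls of named LINC genes, 39 held under every setting run and 30 were lost under at least 1. Among the named calls, signs turned only on dimmer clusters of the same gene, fitted by themselves in a setting added after seeing the data. LINC00265 turned with panobinostat (0.1255 and 0.0707), with the combination (0.0423 and 0.0908) and for the combination against panobinostat (0.0202). LINC00312 turned against JQ1 for the combination (-0.1571) and panobinostat (-0.0846). LINC00641 turned with panobinostat (-0.0845), and LINC00933 with the combination (-0.0926) and against JQ1 (-0.1136 and -0.0065). Some named differences that were not called turned as well, among them LINC00641 with JQ1 (-0.200) and LINC00999 with the combination (0.0834) on dimmer clusters. LINC00663, outside the naming rule, also turned with the combination on its dimmer cluster (-0.293, called). So did LINC00466 (-0.00584) and LINC00616 (-0.223) with panobinostat on a dimmer cluster, neither called. With the mean of clusters LINC00265 (panobinostat, and the combination against panobinostat), LINC00312 (combination, against vehicle and JQ1) and LINC00641 (panobinostat) lost calls. These settings were run on LINC genes and not on the listed or neighbouring genes.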
